A study of Mus musculus with 8 samples.

Results

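HCN channels are the pacemaker channels of neurons and heart cells, and 3 genes that encode their pore-forming subunits, Hcn2, Hcn3 and Hcn4, were followed in mouse brain cortex. The genes were taken by symbol and Ensembl identifier, Hcn2 being ENSMUSG00000020331, Hcn3 ENSMUSG00000028051 and Hcn4 ENSMUSG00000032338. All 3 were measured, among 15693 genes in the count table. Polyadenylated RNA came from the cortex of 8 mice aged 4 months, in a wild type (WT) group of 4 and a TDP-43Q331K group of 4. The TDP-43Q331K mice carry a mutation of TDP-43 linked to amyotrophic lateral sclerosis (ALS), and the study concerns reduced excitability of their motor cortex neurons. The sample labels give the WT genotype as C57BL/6J, whereas the design text of the series names the 6N substrain. They give neither the promoter of the TDP-43Q331K allele, nor its copy number, nor the sex of the mice, and they place all the libraries in batch 1.

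HCN channels open when the membrane becomes more negative and carry an inward current of sodium and potassium, the h-current. The current depolarises the resting membrane, shortens synaptic potentials in dendrites and, in some cells, drives rhythmic firing. Cyclic AMP binds to a domain inside the channel and makes it easier to open. HCN2 is found widely in the brain and is strongly cAMP-sensitive. HCN3 is a minor subunit of the brain that responds little to cAMP. HCN4 is the main pacemaker subunit of the heart and, in the brain, is best known from thalamic relay neurons and the olfactory bulb.

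The 3 genes lie on chromosomes 10, 3 and 9 and share the sequence of their core. The stretch below, of 81 bases of coding sequence, spans the selectivity filter of the pore, and is shown because it lies in the core that all the subunits hold in common. Capitals mark the codons for glycine, tyrosine and glycine that line the filter. Positions, counted from the first base of the start codon, are 1168 to 1248 in Hcn2, 898 to 978 in Hcn3 and 1402 to 1482 in Hcn4, from the GENCODE M21 transcripts (build GRCm38).
Hcn2: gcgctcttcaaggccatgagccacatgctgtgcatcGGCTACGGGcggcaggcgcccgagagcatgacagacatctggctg
Hcn3: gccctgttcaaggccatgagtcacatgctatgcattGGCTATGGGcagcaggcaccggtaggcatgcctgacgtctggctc
Hcn4: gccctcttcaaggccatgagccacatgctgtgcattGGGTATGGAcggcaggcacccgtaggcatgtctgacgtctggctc
In this stretch Hcn3 and Hcn4 had 73 of 81 bases in common, Hcn2 and Hcn4 had 68, and Hcn2 and Hcn3 had 65. Over the alignable coding sequence, identity was 83.2% between Hcn2 and Hcn4 (1628 bases), 81.3% between Hcn3 and Hcn4 (1506 bases) and 79.2% between Hcn2 and Hcn3 (1517 bases). The longest identical run between any pair of the transcripts was 33 bases, in Hcn2 and Hcn3:
Hcn2 and Hcn3 run: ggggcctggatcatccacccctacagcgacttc
Hcn2 and Hcn4 had at most 32 identical bases in a row, as did Hcn3 and Hcn4. The coding length was 863 codons for Hcn2, 779 for Hcn3 and 1201 for Hcn4.

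The libraries held between 45253021 and 58115164 counts. Levels are given as CPM, the counts scaled to a fixed library size with TMM factors, and 1 CPM stood for at least 45.3 counts. Tardbp, which encodes TDP-43, was at 185 ± 12.8 CPM in WT and 155 ± 11.7 CPM in TDP-43Q331K (SD, n = 4, edgeR adjusted p 0.106). Markers of cortical excitatory neurons were present in every library, with none of the 12 at 0, and the most abundant of them was Camk2a, at 3318 ± 269 CPM in WT. WT replicates 1 and 2 stood apart from the other 6 libraries in markers of the olfactory bulb, a tissue that adjoins the cortex. The summed level of 10 such markers was 35.7 and 42.6 CPM in these libraries, 212 and 152 CPM in WT replicates 3 and 4, and 148, 262, 246 and 98.1 CPM in TDP-43Q331K replicates 1 to 4. The edgeR log2 fold change of each HCN gene is therefore also given without WT replicates 1 and 2, an alternative chosen after the data were seen.

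None of the 3 HCN genes passed edgeR's quasi-likelihood test between the genotypes at an adjusted p under 0.05, a threshold that 0.943% of all genes passed (148 of 15693), 0.344% being higher and 0.599% lower in TDP-43Q331K. Hcn4 had the largest difference of the 3, 1.31-fold higher in TDP-43Q331K. Hcn3 stood at 1.11-fold and Hcn2 at 1.04-fold. At an unadjusted p under 0.05, 1 of the 3 (Hcn4) was past the threshold, as were 15.7% of all genes, 7.91% on the higher and 7.77% on the lower side. DESeq2, limma-voom and limma-trend also called 0 of the 3, and DESeq2 called 4.47% of all genes.

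**Figure D1:**
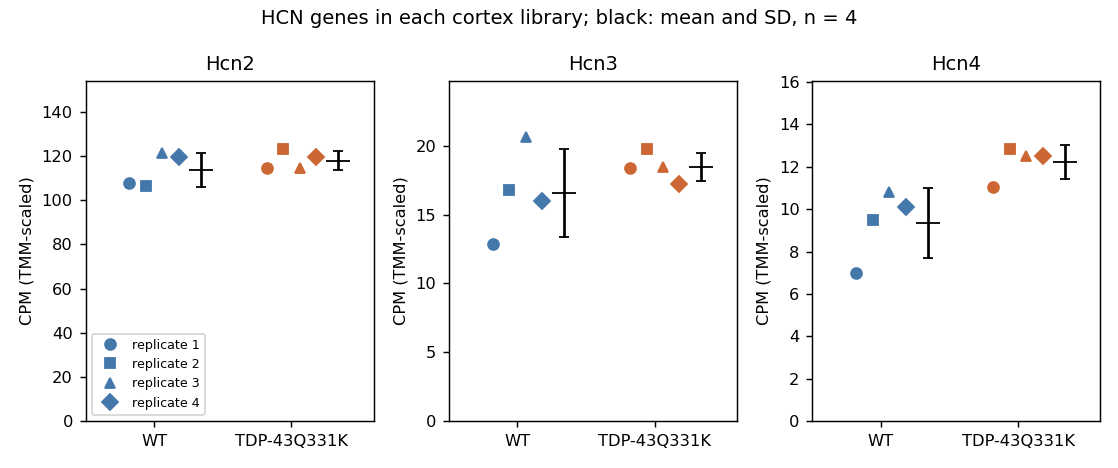
CPM of Hcn2, Hcn3 and Hcn4 in each library (y axis from 0, 1 symbol per replicate number), with the mean and SD of each group in black. All 4 TDP-43Q331K libraries lie above all 4 WT libraries in Hcn4, from 11.04 CPM upward against 10.8 CPM at most, whereas the groups overlap in Hcn2 and Hcn3.

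Hcn2 was by far the most abundant of the 3. It was at 107.8, 106.3, 121.4 and 119.6 CPM in WT replicates 1 to 4. In TDP-43Q331K replicates 1 to 4 it was at 114.8, 123.3, 114.6 and 119.5 CPM. The groups overlapped, and the lowest values were those of WT replicates 1 and 2. The means were 114 ± 7.83 CPM in WT and 118 ± 4.15 CPM in TDP-43Q331K (SD, n = 4). The log2 fold change was 0.05 with an SE of 0.05 and an edgeR adjusted p of 0.676. The 95% interval of the fold ran from 0.955 to 1.13. Each library held at least 5345 counts of Hcn2, a counting error of at most 1.37%, which is smaller than the SD between libraries of either group. Without WT replicates 1 and 2 the log2 fold change was -0.03 (edgeR adjusted p 0.909).

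Hcn3 had an SD among the WT mice of 19.2% of its mean, beside 17.8% for Hcn4 and 6.88% for Hcn2. It was at 12.9, 16.8, 20.6 and 15.95 CPM in WT replicates 1 to 4. In TDP-43Q331K replicates 1 to 4 it was at 18.4, 19.8, 18.4 and 17.2 CPM. WT replicates 1 and 3 held the lowest and the highest value of all 8 libraries, and the TDP-43Q331K values lay between them. The SD was 19.2% of the mean in WT and 5.67% in TDP-43Q331K, and the counting error of a library was at most 3.96% in WT and 3.30% in TDP-43Q331K. The log2 fold change was 0.16 with an SE of 0.12 and an edgeR adjusted p of 0.564. The 95% interval of the fold ran from 0.928 to 1.34. It was 0.28 (unadjusted p 0.0151, adjusted p 0.211) without WT replicate 3, 0.05 without WT replicate 1, and 0.01 (adjusted p 0.986) without WT replicates 1 and 2.

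Hcn4 was the scarcest of the 3. It was at 6.98, 9.48, 10.8 and 10.1 CPM in WT replicates 1 to 4, from 346, 550, 565 and 458 counts. In TDP-43Q331K replicates 1 to 4 it was at 11.04, 12.8, 12.5 and 12.5 CPM, from 552, 705, 687 and 689 counts. The groups did not overlap, as was the case for 9.68% of all genes (4.49% with TDP-43Q331K the higher group), though WT replicate 3 and TDP-43Q331K replicate 1 differed by less than the counting error of either library (4.21% and 4.26%). WT replicate 1 was the lowest library. The means were 9.34 ± 1.66 CPM in WT and 12.2 ± 0.804 CPM in TDP-43Q331K (SD, n = 4), which gave a log2 fold change of 0.39 with an SE of 0.12. The 95% interval of the fold ran from 1.09 to 1.58, the unadjusted p was 0.00909 and the edgeR adjusted p was 0.159, so the difference failed the correction over all genes. By unadjusted p Hcn4 ranked 896 of 15693. DESeq2 gave 0.38 with an adjusted p of 0.0584. Without WT replicate 1 the log2 fold change was 0.27 (SE 0.09, edgeR adjusted p 0.273), and without WT replicates 1 and 2 it was 0.23 (SE 0.10, edgeR adjusted p 0.559).

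**Figure D2:**
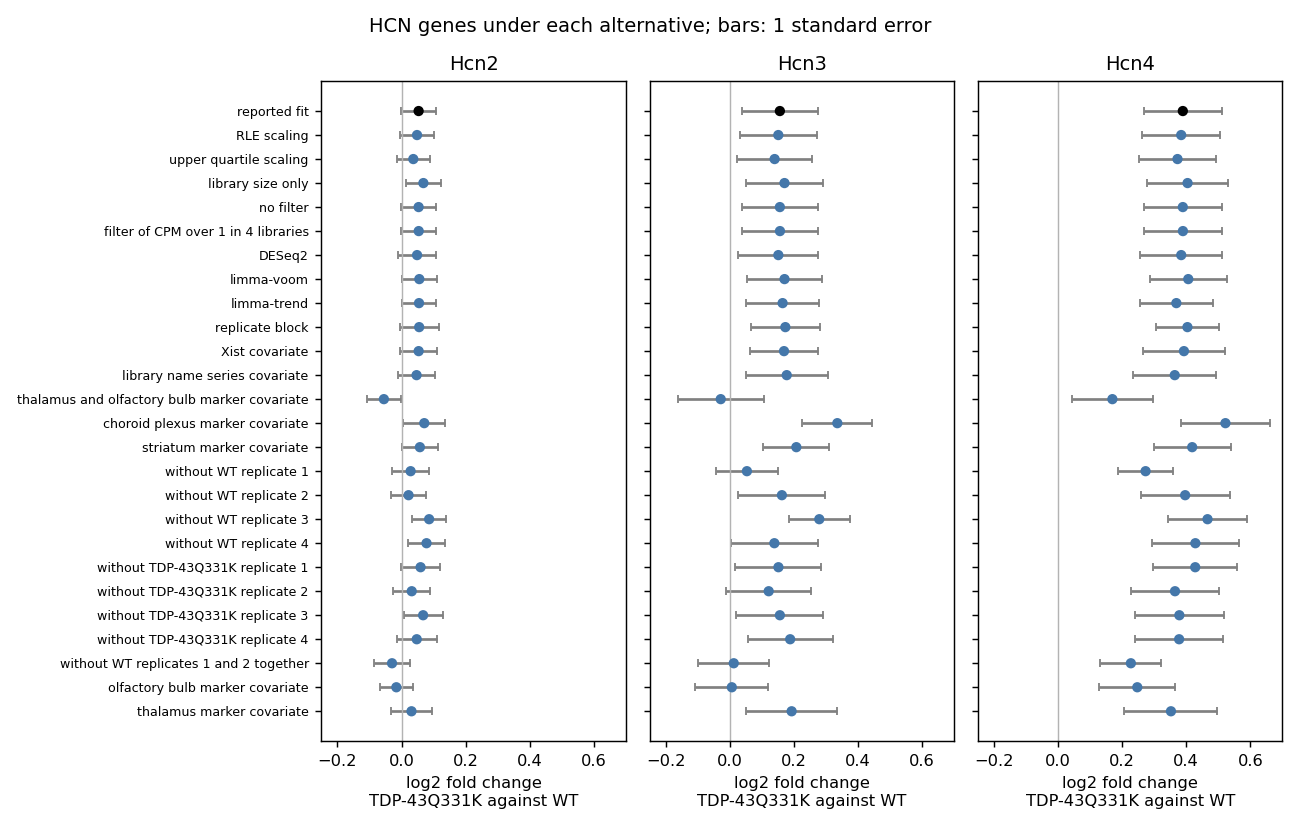
Log2 fold change of each HCN gene, TDP-43Q331K against WT, in the reported fit (black) and in each alternative (blue), with bars of 1 standard error and a line at 0. Hcn4 stays above 0 throughout, between 0.17 and 0.52, whereas Hcn2 and Hcn3 reach values below 0.

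Set on a common scale of CPM per kilobase of exon, the order of levels was Hcn2, Hcn3, Hcn4 in every library. The WT means were 35.6 ± 2.45, 3.98 ± 0.766 and 1.53 ± 0.272 CPM per kilobase, and the TDP-43Q331K means 37.0 ± 1.299, 4.44 ± 0.252 and 2.00 ± 0.131 (SD, n = 4). Neighbours in this order did not overlap. The lowest Hcn2 value of a library was 33.3 CPM per kilobase against a highest Hcn3 value of 4.96, and the lowest Hcn3 value was 3.10 against a highest Hcn4 value of 2.10. Among 15471 genes with a length, Hcn2 stood at percentile 92.5 of mean level per kilobase, Hcn3 at 46.0 and Hcn4 at 26.6. Of the summed level of the 3 genes, Hcn2 made up between 84.7% and 88.8% in a library. The sum itself was 41.1 ± 3.23 CPM per kilobase in WT and 43.4 ± 1.51 in TDP-43Q331K (SD, n = 4), and the groups overlapped. Hcn4 held 3.70% ± 0.465 of the sum in WT and 4.60% ± 0.232 in TDP-43Q331K (SD, n = 4). Its share was at most 3.99% in WT libraries (3.94% and 3.85% in WT replicates 3 and 4) and at least 4.28% in TDP-43Q331K libraries.

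A ratio of genes within a library does not depend on the scaling factor. The log2 ratio of Hcn4 to Hcn2 in CPM was -3.95, -3.49, -3.49 and -3.57 in WT replicates 1 to 4. It was -3.38, -3.26, -3.20 and -3.25 in TDP-43Q331K replicates 1 to 4, so the groups did not overlap, and WT replicate 1 was far below the rest. The log2 ratio of Hcn4 to Hcn3 ran from -0.93 to -0.66 in WT and from -0.73 to -0.46 in TDP-43Q331K, with an overlap of WT replicate 4 and TDP-43Q331K replicate 1. The log2 ratio of Hcn3 to Hcn2 ran from -3.07 to -2.56 in WT and from -2.80 to -2.63 in TDP-43Q331K, wholly within the WT range. These ratios are a description, and whether the HCN genes differ from each other in their response was not tested. How often other pairs of genes separate the groups in this way was not counted. Such a ratio can still change with the tissue in a library. Hcn2 itself had a log2 fold change of 0.05.

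**Figure D3:**
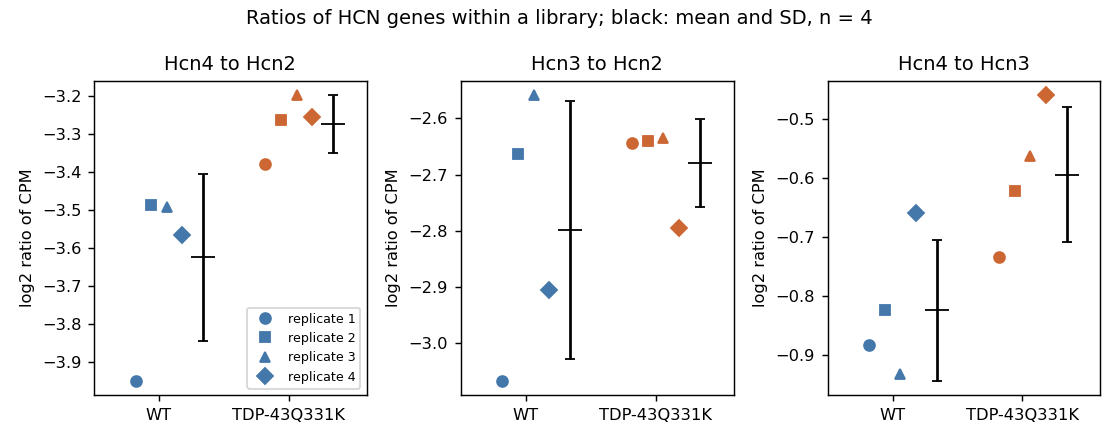
Log2 ratio of CPM between HCN genes within each library (y axis, 1 symbol per replicate number), with the mean and SD of each group in black. The Hcn4 to Hcn2 ratio separates the groups, at -3.49 or lower in WT and -3.38 or higher in TDP-43Q331K, and the other ratios overlap.

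Markers of adjoining tissues differed between libraries beside Hcn4. Hcn4 is abundant in olfactory bulb and thalamus, and a sample of whole cortex can carry some of either. The part of such tissue in the Hcn4 difference was not tested, and since its markers differed along with genotype the values below are given as measurements only. Cdhr1, a cadherin-related gene of the projection neurons of the olfactory bulb, measured 10.5, 13.9, 74.3 and 53.1 CPM in the WT replicates in order. The TDP-43Q331K replicates held 51.0, 88.9, 79.6 and 27.1 CPM of it. Th, which encodes the dopamine-synthesising enzyme of periglomerular cells there, stood at 1.33 and 1.34 CPM in the WT pair low in Cdhr1 and between 8.09 and 28.1 CPM in the other 6. Of the thalamic markers, Slc17a6, a vesicular glutamate transporter gene, was at 29.003, 31.7, 26.8 and 25.7 CPM in WT and at 33.2, 37.1, 34.2 and 50.0 CPM in TDP-43Q331K, with no overlap (log2 fold change 0.45, edgeR adjusted p 0.123). It was the only thalamic marker whose groups did not overlap, as was the case for 9.68% of all genes. Ptpn3, the most abundant marker of the thalamic list, was at 79.6 ± 2.45 CPM in WT and 80.4 ± 8.45 CPM in TDP-43Q331K. Its log2 fold change was 0.01. TDP-43Q331K replicate 4 was the highest library in 11 of the 12 thalamic markers and had the lowest summed olfactory bulb markers of its group. Prkcd, a protein kinase C gene named after its values were seen, was between 8.69 and 12.5 CPM in WT and at 9.54, 16.4, 9.48 and 67.7 CPM in TDP-43Q331K.

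Over the whole lists, 9 of 10 olfactory bulb markers and 12 of 12 thalamic markers had a positive log2 fold change. Over all genes the share was 51.8%. The medians were 0.79 and 0.46 against 0.004 over all genes. None of these markers passed edgeR's test. Unadjusted p was under 0.05 for 1 and 4 of them, on the higher side, beside 7.91% of all genes. DESeq2 called 0 and 2, beside 4.47% of all genes. Without TDP-43Q331K replicate 4 the thalamic list had 7 of 12 above 0 and a median of 0.06, and without WT replicates 1 and 2 the olfactory bulb list had 6 of 10 above 0 and a median of 0.06. Of choroid plexus markers, 11 of 11 were above 0 with a median of 1.09, which was 0.23 without TDP-43Q331K replicate 4. Of striatal markers, 9 of 11 were above 0 with a median of 0.06, and of hippocampal markers 3 of 10 with a median of -0.17. No marker of either list was at 0 in any library. The summed level of the 12 thalamic markers was between 219 and 260 CPM in WT and between 252 and 436 CPM in TDP-43Q331K, and that of the olfactory bulb markers between 35.7 and 212 CPM in WT and between 98.1 and 262 CPM in TDP-43Q331K. The thalamic and olfactory bulb lists share Calb2, so they are not separate measures. Calb2 was at 14.3, 18.1, 65.6 and 44.9 CPM in WT replicates 1 to 4. In TDP-43Q331K replicates 1 to 4 it was at 43.2, 77.6, 73.5 and 42.9 CPM. With the mean log2 level of both lists as a covariate, Hcn4 had a log2 fold change of 0.17 with an SE of 0.13 and an edgeR adjusted p of 0.716, that of Hcn3 -0.03 and that of Hcn2 -0.05. With the olfactory bulb list alone, which was added once the data had been seen, Hcn4 was at 0.25 (adjusted p 0.478), and with the thalamic list alone, added likewise, at 0.35. The choroid plexus list as a covariate moved the values the other way, to 0.52 for Hcn4 (unadjusted p 0.00375, edgeR adjusted p 0.129) and 0.34 for Hcn3 (0.0123 and 0.193), and the striatal list gave 0.42 for Hcn4 (adjusted p 0.157). TDP-43Q331K replicate 4 had fewer olfactory bulb markers than WT replicates 3 and 4 (98.1 CPM against 212 and 152) and more Hcn4 (12.5 CPM against 10.8 and 10.1). It also had the highest summed thalamic markers of all the libraries, 436 CPM. The source of its Hcn4 was not tested.

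**Figure D4:**
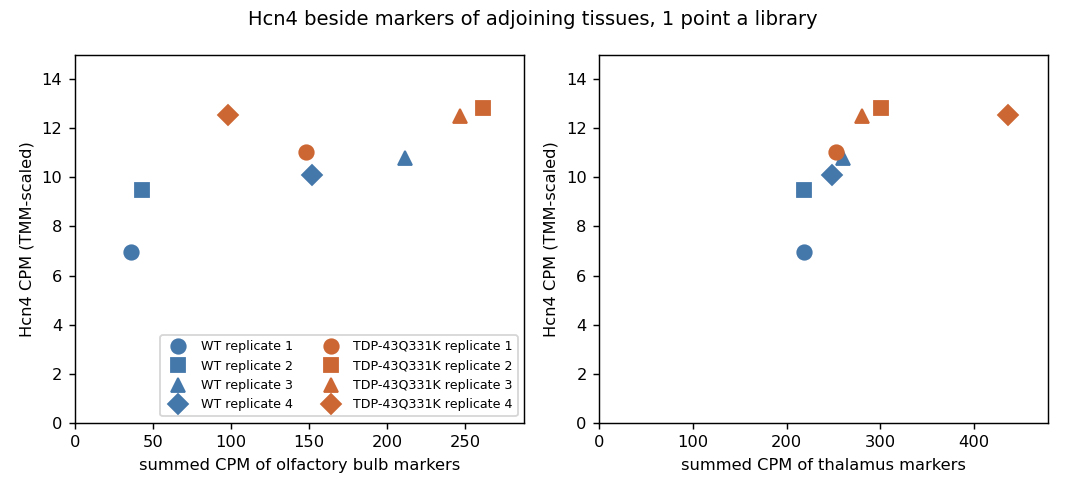
Hcn4 in CPM (y axis) against the summed CPM of olfactory bulb markers (left) and of thalamus markers (right), 1 point for each of the 8 libraries. WT replicates 1 and 2, at 35.7 and 42.6 CPM of olfactory bulb markers, have the lowest Hcn4 levels, 6.98 and 9.48 CPM. TDP-43Q331K replicate 4, at 98.1 CPM of olfactory bulb markers and 436 CPM of thalamus markers, has 12.5 CPM of Hcn4.

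Markers of cortical excitatory neurons had mostly negative values. Of 12, 11 had a negative log2 fold change, with a median of -0.13, whereas 51.8% of all genes had a positive one. The summed level of the 12 was 5790, 5482, 5093 and 5146 CPM in WT replicates 1 to 4. It was 4787 to 4954 CPM in TDP-43Q331K. The highest sums were those of WT replicates 1 and 2, the libraries low in olfactory bulb markers. Camk2a made up most of this sum, with means of 3318 CPM in WT and 2956 CPM in TDP-43Q331K, and its groups overlapped. None of the 12 passed edgeR's test and DESeq2 called 1, beside 4.47% of all genes. An unadjusted p under 0.05 was found for 4 of those below 0, beside 7.77% of all genes on the lower side. CPM is relative, so in bulk tissue fewer cells of a type, less RNA per cell and more of another tissue cannot be told apart. The summed level of 10 genes listed for parvalbumin interneurons overlapped between groups, at 1363 to 1549 CPM in TDP-43Q331K. In WT replicates 1 to 4 it was 1180, 1145, 1481 and 1484 CPM. Its largest parts were Gad1, Gad2 and Kcnc1, with means of 469, 221 and 228 CPM in WT and 537, 260 and 249 CPM in TDP-43Q331K. Gad1 and Gad2 are not particular to parvalbumin cells. Pvalb itself, named after its values were seen, averaged 38.6 CPM in WT and 36.3 CPM in TDP-43Q331K. Lhx6, named likewise, averaged 20.7 and 18.7 CPM (log2 fold change -0.15, unadjusted p 0.0384 and adjusted p 0.287 in edgeR). Of the 10 genes, 6 had a positive log2 fold change. The summed level of 12 markers of layer 5 output neurons also overlapped, at 598 to 685 and 614 to 643 CPM. The part of these cell types in the HCN levels was not tested. Xist, transcribed in female cells, was high (876 to 1015 CPM) in WT replicates 2 and 3 and TDP-43Q331K replicates 1 and 2 and at most 1.37 CPM in the rest, and with it as a covariate the log2 fold change of Hcn4 was 0.39.

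HCN channels work with partner proteins that place them in the membrane or tune their gating. Of 15 such genes listed, 14 were measured, 0 passed edgeR's test, and unadjusted p was under 0.05 for 3 on the lower side and 0 on the higher. DESeq2 called 3. Of all genes, 7.77% on the lower and 7.91% on the higher side had such an unadjusted p, and DESeq2 called 4.47%. The median log2 fold change of the list was -0.01, beside 0.004 for all genes. The groups did not overlap in 3 of the 14, beside 9.68% of all genes. Vapb, which encodes a protein of the endoplasmic reticulum that is mutated in a form of human ALS and binds HCN channels, was at 169, 162, 174 and 169 CPM in WT and at 146, 154, 145 and 151 CPM in TDP-43Q331K. Its groups did not overlap, and its log2 fold change was -0.18 with an SE of 0.04 and an edgeR adjusted p of 0.0761. DESeq2 gave an adjusted p of 0.000902 and edgeR with upper quartile scaling 0.0447. Without WT replicates 1 and 2 its log2 fold change was -0.21 (adjusted p 0.365).

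Apba2, an adaptor gene of the Mint family, was at 221 ± 9.95 CPM in WT and 193 ± 6.61 CPM in TDP-43Q331K (SD, n = 4) with no overlap. Its log2 fold change was -0.19 and its edgeR adjusted p 0.0906. Mapk14, which encodes the stress kinase p38 alpha, had a log2 fold change of -0.16 with an edgeR adjusted p of 0.141, again with no overlap. Irag1, named Mrvi1 in the annotation, was at 2.12 ± 0.271 CPM in WT and 2.85 ± 1.09 CPM in TDP-43Q331K. Kcne2, an auxiliary subunit gene that is abundant in choroid plexus, was at 0.668 ± 0.994 CPM in WT and 1.55 ± 1.38 CPM in TDP-43Q331K. WT replicate 1 held 2.16 CPM of it and the other WT libraries at most 0.207 CPM. Choroid plexus markers summed to between 219 and 824 CPM in WT and between 287 and 1089 CPM in TDP-43Q331K. The best known partner, Pex5l, encodes TRIP8b, which carries HCN channels into dendrites. It was at 166.7 ± 11.996 CPM in WT and 165 ± 4.10 CPM in TDP-43Q331K (SD, n = 4, log2 fold change -0.01, SE 0.05). Kctd3, whose product acts on HCN3, was at 83.0 ± 1.74 and 82.8 ± 1.49 CPM (log2 fold change -0.01, SE 0.04). Pex5l and Kctd3 were named after their values were seen.

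Cyclic AMP, the ligand of the channels, is made by adenylyl cyclases, broken down by phosphodiesterases and read by protein kinase A and the Epac exchange factors. Of 24 genes of this chain, 0 passed edgeR's test, DESeq2 called 1, and unadjusted p was under 0.05 for 2 on the higher side and 0 on the lower. The shares over all genes were 4.47% in DESeq2, 7.91% on the higher and 7.77% on the lower side. The list had a median log2 fold change of 0.004. Rapgef3, which encodes Epac1, was at 26.6, 26.9, 27.7 and 27.3 CPM in WT and at 29.8, 38.9, 36.2 and 29.2 CPM in TDP-43Q331K. The groups did not overlap, as for 1 of the 24 and for 9.68% of all genes. The log2 fold change of Rapgef3 was 0.31 with an SE of 0.09, and adjusted p was 0.14 in edgeR and 0.0419 in DESeq2. Prkar2a, a regulatory subunit gene of protein kinase A, had a log2 fold change of 0.11 (edgeR adjusted p 0.222). Those of the phosphodiesterase genes Pde1a and Pde8b were -0.14 and -0.06, and that of Prkar1b was -0.09.

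Channels with a related cyclic nucleotide-binding domain were mostly of the Kcnh family. Of 14 such genes 9 were measured, 0 passed edgeR's test, DESeq2 called 1, and unadjusted p was under 0.05 for 1, on the higher side. Over all genes DESeq2 called 4.47%, and 7.91% had an unadjusted p under 0.05 on the higher side. Kcnh2, which encodes the potassium channel ERG, was at 32.3, 32.5, 44.8 and 40.4 CPM in WT and at 48.2, 55.4, 44.4 and 46.3 CPM in TDP-43Q331K. As for Hcn4, the lowest libraries were WT replicates 1 and 2, but the groups overlapped. Its log2 fold change was 0.37 with an SE of 0.11, and adjusted p was 0.143 in edgeR and 0.0326 in DESeq2. It was 0.19 (edgeR adjusted p 0.621) without WT replicates 1 and 2. Kcnh1, Kcnh3, Kcnh6 and Kcnh8 had log2 fold changes of -0.12, -0.07, 0.12 and 0.40, with edgeR adjusted p values from 0.465 to 0.634.

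Potassium channels that are open near rest oppose the h-current. Of 17 such genes, mostly for leak and inward rectifier channels, 0 passed edgeR's test, DESeq2 called 0, and unadjusted p was under 0.05 for 2 on the lower side and 0 on the higher. The shares over all genes were 4.47% in DESeq2, 7.77% on the lower and 7.91% on the higher side. The median log2 fold change of the 17 was -0.04. Kcnk4, for the leak channel TRAAK, was at 16.9 ± 0.709 CPM in WT and 14.7 ± 1.75 CPM in TDP-43Q331K (SD, n = 4, log2 fold change -0.20, edgeR adjusted p 0.301). Kcnj4, an inward rectifier gene, was at -0.14 (0.317 likewise), and the leak channel genes Kcnk2 and Kcnk10 were at -0.16 and -0.17.

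**Figure D5:**
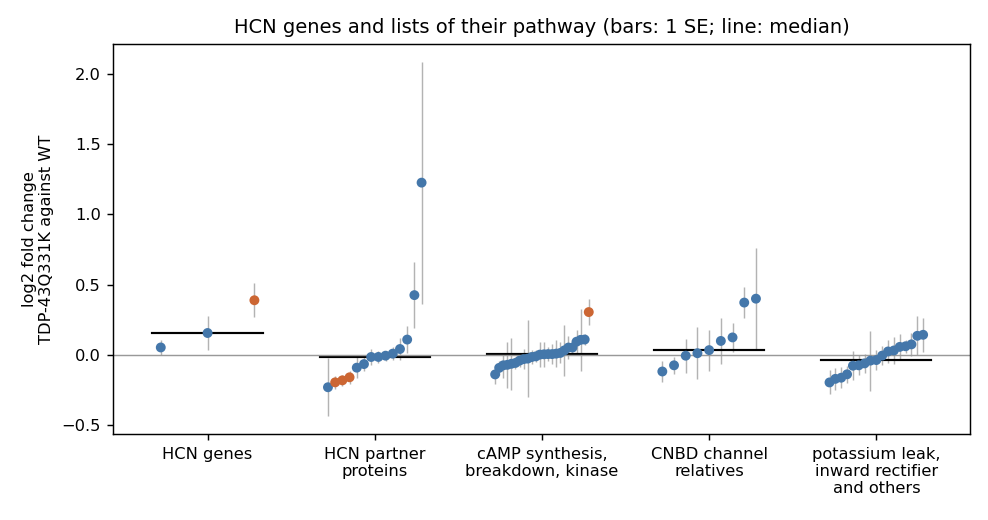
Log2 fold change, TDP-43Q331K against WT (y axis), of Hcn2, Hcn3 and Hcn4 and of the genes of the 4 pathway lists, with bars of 1 standard error and a black line at each list's median. Orange points are genes whose groups do not overlap (9.68% of all genes), among them Hcn4 at 0.39, and blue points are the rest. No gene shown passed edgeR's test.

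The annotation order of the genome gave the measured neighbours of each HCN gene, and none passed the test. Next to Hcn4 lay Neo1, for the receptor neogenin, at a log2 fold change of 0.08 (edgeR adjusted p 0.465), and Rec114, a meiotic gene at 1.19 ± 0.255 CPM in WT and 1.48 ± 0.206 CPM in TDP-43Q331K (log2 fold change 0.32, edgeR adjusted p 0.442). Hcn2 lay between Bsg, the gene for basigin, at -0.07, and Polrmt, the gene for mitochondrial RNA polymerase, at 0.08. Polrmt ends 15 bases from Hcn2 on the opposite strand. Hcn3 lay between Fdps, a gene of isoprenoid synthesis, at -0.25 (edgeR adjusted p 0.173), and Clk2, a splicing kinase gene, at 0.03. Hcn3 also overlaps Pklr on the opposite strand, where 711 bases of its longest transcript match a Pklr transcript at 90% identity or more. Pklr itself is not among the genes of the count table. The library kit keeps strand, but no source used here says whether counting used it, and reads of Hcn3 in that stretch are uncertain.

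TDP-43 binds UG-rich RNA. Read on the transcript's own strand, the longest uninterrupted repeat of TG in the coding transcripts was 4 bases in Hcn2 and 6 bases in Hcn3 and in Hcn4. A run of at least 6 bases occurred in 78.0% of 13831 protein-coding genes of the table. Introns were not examined.

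The genes whose log2 CPM followed each HCN gene most closely over the 8 libraries were picked from 15088 genes as those with the highest Pearson r, so the values below describe the choice and carry no test. For Hcn4 they were Polr1e (0.969), Alk (0.968), Adam17 (0.961), Pkmyt1 (0.96) and Zfp961 (0.96). Polr1e encodes a subunit of RNA polymerase I, Alk a receptor tyrosine kinase, and Adam17 a sheddase. Their log2 fold changes ran from 0.14 for Adam17 to 0.26 for Polr1e, and their edgeR adjusted p values from 0.238 to 0.296. For Hcn3 they were Fzd9 (0.97), 5830408C22Rik (0.953), Eri1 (0.95), Tagap (0.947) and Tmem132c (0.943). Fzd9 is a Wnt receptor gene. For Hcn2 they were Slc46a3 (0.975), Spire2 (0.973), Nck1 (0.973), Odc1 (0.952) and Fndc5 (0.945). Odc1 encodes the first enzyme of polyamine synthesis. No gene was among the closest 5 of more than 1 HCN gene.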

How the data were processed

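Cortex was dissected and flash-frozen, RNA was captured with oligo(dT) beads, and a stranded ligation kit made the libraries for a NovaSeq X run, per the labels' protocols. Tools named in the submitters' processing notes, with no role, are STAR 2.7.6a, R 4.3.1 and edgeR 4.4.2, beside the build GRCm39. Not given in the sources used here are the read counter, the strand setting and the annotation. The deposited tables hold raw counts and, per the file headers, the same counts as CPM after TMM scaling by the authors. Columns were matched to samples by library name, with 0 unmatched.

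Symbols, lengths, neighbours and transcripts came from GENCODE M21 (GRCm38), so no genome coordinates are given; 15471 of 15693 identifiers had a symbol. R 4.3.3 with edgeR 4.0.16 compared 4 TDP-43Q331K with 4 WT libraries by the two-sided quasi-likelihood F-test, with TMM factors, filterByExpr (which removed 0 genes), an intercept and genotype. Adjustment was by Benjamini-Hochberg for all 15693 genes together, and adjusted p under 0.05 counted as a call. The common biological coefficient of variation was 11.2%. The test was checked on counts simulated from the dispersions that edgeR fitted to these data, with independent libraries. Tissue differences between libraries were not simulated, so the check does not cover them.

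Alternatives comprised scaling by RLE, upper quartile or library size, filters (none, or CPM above 1 in at least 4 libraries), DESeq2 1.42.0, limma 3.58.1 (voom, and trend on log2 of the deposited CPM plus 1), replicate block, covariates for Xist, library name series and adjoining tissues, and each library left out. The HCN genes, the lists, the tests and the genes named (up to 5 of each pathway list with the smallest p, up to 4 markers of a list, neighbours, and the 5 closest to each HCN gene) were chosen with earlier results of these data known, and a gene that this rule names is not reported here. The labels say nothing of separate litters, and p values measure the spread between these samples. Figures used Python 3.11.15.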

Additional observations from a re-analysis of the deposited data

Results flagged for a closer look

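Of 20 groups of 4 values checked with Dixon's test at its 95% level, 2 held a library far from the rest, and chance flags about 1 in 20. In WT, the log2 ratio of Hcn4 to Hcn2 was -3.95 in replicate 1, whose gap to the next library was 0.831 of the group's range. In TDP-43Q331K, the log2 ratio of Hcn3 to Hcn2 was -2.80 in replicate 4, whose gap was 0.944 of the range.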

How the results depend on the processing

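None of the 3 HCN genes passed under any of the 25 alternatives. The alternative with no filter repeats the reported fit, since filterByExpr removed 0 genes. Hcn4 kept its direction in all 25 (0.17 to 0.52, adjusted p 0.0584 to 0.716), Hcn3 in 24 and Hcn2 in 22. With the thalamus and olfactory bulb covariate Hcn2 was at -0.055 and Hcn3 at -0.028. Hcn2 was at -0.030 without WT replicates 1 and 2 together and at -0.016 with the olfactory bulb covariate, both added after the data were seen. The cause was not tested. Leaving out 1 library gave 0.02 to 0.09 for Hcn2, 0.05 to 0.28 for Hcn3 and 0.27 to 0.47 for Hcn4, with WT replicate 1 behind the lowest values of Hcn3 and Hcn4.

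Over all genes, against 148 calls, DESeq2 made 701, the replicate block 14, the thalamus and olfactory bulb covariate 12, the olfactory bulb covariate 28 and the thalamus covariate 59. Leaving out 1 library left 51 to 129, and leaving out WT replicates 1 and 2 together left 7. Of HCN partners, DESeq2 called 3 and upper quartile scaling 1, against 0. DESeq2 also called 1 cAMP gene and 1 channel relative, against 0. Calls split into 54 higher and 94 lower, into 64 and 73 when only library size was scaled, and into 42 and 107 with upper quartile scaling.

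Replicate numbers come from the titles. Deviations of same-numbered libraries correlated at -0.412, 0.031, -0.0791 and 0.0328, and 0 of 4 WT libraries correlated best with their own number. With the replicate block the log2 fold changes of Hcn2, Hcn3 and Hcn4 were 0.06, 0.17 and 0.40 (adjusted p of Hcn4 0.216). With 4 libraries a group, the interval of Hcn4 reached from 1.09-fold to 1.58-fold.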
